A study of Macaca mulatta with 14 samples.

Results

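Neuroepithelial stem cells (NESCs) of the rhesus monkey, *Macaca mulatta*, were profiled by RNA sequencing at passage 23 (CHIR-P23) and passage 6 (CHIR-P6) of the induced epithelial colonies, and the passages were compared across all genes. They account for 4 of the 14 libraries of the series, 2 for each passage, chosen by their labels. The series followed the conversion of fetal fibroblasts (RF-P3) to NESCs, with cells taken on the way on day 5 and day 11 (RF-iN-d5, RF-iN-d11), and also holds single-cell colonies that were raised out of the CHIR-P23 cells (C8-P7 and A9-P7). The 2 passages share their origin and treatment. Ear-skin fibroblasts came from 2 male fetuses at embryonic day 65 and were infected with retroviruses carrying rhesus OCT4, SOX2 and KLF4. The epithelial colonies were then passaged on laminin in Neurobasal medium with B27 and N2. Per the labels this medium also held the GSK3 inhibitor CHIR99021 (3 µM), the TGF-beta receptor inhibitor SB431542 (5 µM), vitamin C, bFGF (10 ng/ml) and human LIF (1000 U/ml), although the study's methods leave CHIR99021 out of the same recipe. The labels do not say which fetus gave the culture. Each passage is 1 sample taken at 1 time, so passage number, time in culture and any outgrowth of some cells over others cannot be told apart.

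Neuroepithelial cells are the earliest progenitors of the nervous system. They form a polarised epithelium, divide symmetrically and give rise to radial glia and neurons. Transcription factors of the SOXB1 group (SOX1, SOX2 and SOX3), PAX6 and the POU3F factors mark them, and the RNA-binding proteins LIN28A and LIN28B are typical of their early, strongly dividing state, in which they block maturation of the let-7 microRNAs. Notch signalling holds such cells as progenitors, while proneural factors drive their exit towards neurons. HOX genes give cells of the trunk and hindbrain their position along the body axis.

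The libraries were made from total RNA with removal of ribosomal RNA only, and levels are the deposited FPKM values (fragments per kilobase of transcript, scaled to the sequenced fragments of the library), moved back to their gene labels where the deposited table held them 1 position off. Of 33688 loci, 15024 reached 1 FPKM in at least 2 of the 14 libraries and were compared. The 2 libraries of a passage differed by less than the sampling noise: the squared difference of their recovered fragment numbers, divided by their sum, averaged 0.133 in CHIR-P23 and 0.146 in CHIR-P6, where separate libraries give about 1. Each pair was therefore averaged and counted as 1 sample, although the study calls the libraries biological replicates. With 1 sample per passage there is no replicate error and no test. A gene is called higher or lower here where log2(FPKM + 1) differed by at least 1, that is 2-fold, and all differences are CHIR-P23 minus CHIR-P6 on this scale, which understates the change of low genes. Relative depth, with RF-P3 set to 1.00, was 4.74 in CHIR-P23 and 1.54 in CHIR-P6, so that 1 fragment of a median gene was worth 0.0209 FPKM in CHIR-P23 and 0.0642 FPKM in CHIR-P6. Depth and passage cannot be told apart.

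Most genes had nearly the same level at both passages, and more genes were lower than higher in CHIR-P23. Of the 15024 genes, 209 (1.39%) passed the 2-fold limit upwards in CHIR-P23 and 643 (4.28%) downwards, and the median difference over all genes was -0.01. Thus 24.5% of the called genes were higher in CHIR-P23, and after quantile normalization of the libraries this share was 37.4% (300 higher and 502 lower). A difference of at least 4-fold was seen in 36 of the higher and 105 of the lower genes. Many called genes were of low level: 89 of the 209 higher genes (42.6%) and 300 of the 643 lower genes (46.7%) stayed under 5 FPKM at both passages, against 36.1% of all genes compared. With a pseudocount of 0.1 in place of 1, 539 genes were higher and 1499 lower, and with 5, 68 were higher and 169 lower. In 29 of the higher genes CHIR-P6 was listed at 0, and in 30 of the lower genes CHIR-P23 was listed at 0. Counts in the gene lists below are to be read beside the 1.39% higher and 4.28% lower over all genes. Very small counts in short lists cannot be set against these shares.

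**Figure D1:**
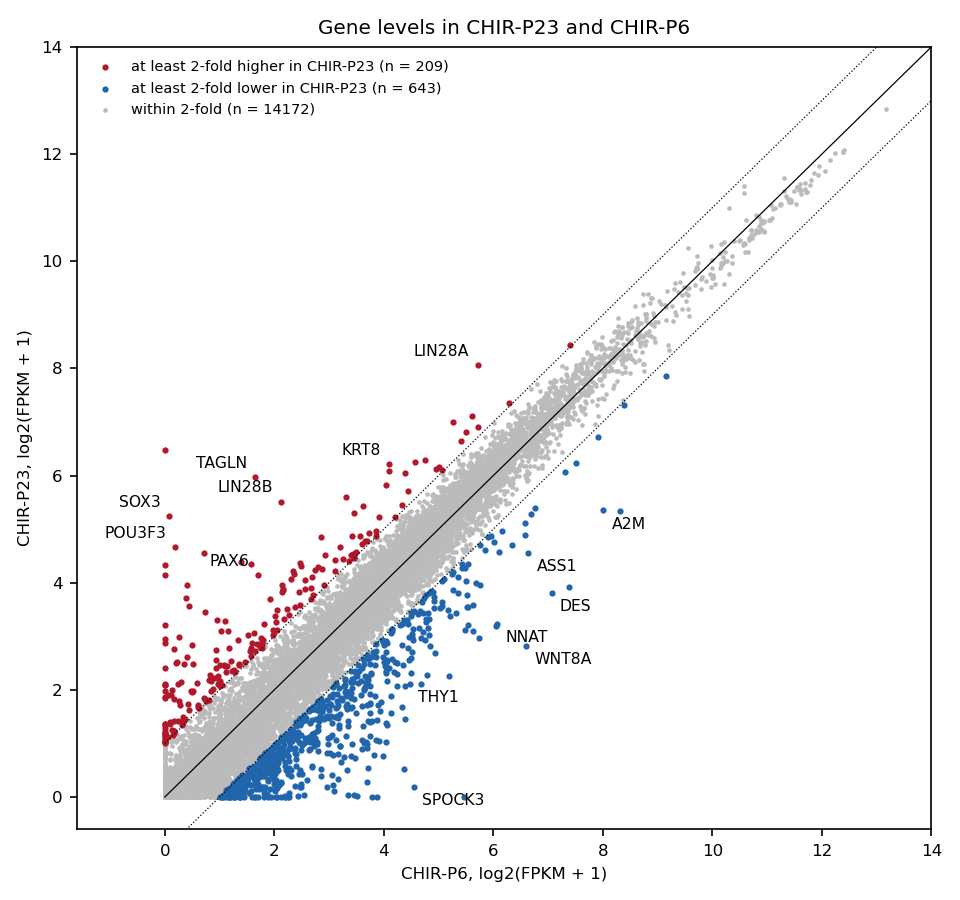
Each point is 1 of the 15024 genes, with log2(FPKM + 1) of CHIR-P23 on the vertical axis and of CHIR-P6 on the horizontal axis, as means of 2 libraries; dotted lines mark 2-fold. The 209 genes higher in CHIR-P23 (red) and the 643 lower ones (blue) include 89 and 300 genes under 5 FPKM at both passages, and SOX3 and POU3F3 stand close to 0 in CHIR-P6.

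Of 8 markers of neuroepithelium, SOX2, NES, MSI1, FABP7 and CDH2 were well expressed at both passages, whereas SOX3 and SOX1 were under 0.3 FPKM and PAX6 was at 2.25 FPKM in CHIR-P6. Not all of the 5 expressed markers are particular to the converted cells. CDH2 and NES averaged 140 and 59.5 FPKM in the RF-P3 fibroblasts. SOX2 was among the delivered factors and averaged 67.1 FPKM on day 5. MSI1 and FABP7 were under 1 FPKM in RF-P3. The label therefore rests on part of the markers at passage 6. SOX2 had 98.1 and 97.6 FPKM in the CHIR-P23 libraries, against 109 and 109 FPKM in CHIR-P6. NES, an intermediate filament of neural progenitors, averaged 332 FPKM in CHIR-P23 and 234 FPKM in CHIR-P6, and MSI1, an RNA-binding protein of the same cells, averaged 19.5 FPKM in CHIR-P23 and 19.6 FPKM in CHIR-P6. FABP7, the brain lipid-binding protein, averaged 403 FPKM in CHIR-P23 and 441 FPKM in CHIR-P6. Summed over all 8 markers, with NES and FABP7 giving most of the sum, levels were 1032 and 1029.98 FPKM in CHIR-P23 and 884 and 881 FPKM in CHIR-P6. Defining factors of several other cell types were near 0. The mesoderm markers T, TBX6, MESP1 and MSGN1 summed to at most 0.292 FPKM in a CHIR-P23 library and were listed at 0 in CHIR-P6. The endoderm factors SOX17 and FOXA2, the neural crest factor FOXD3, the blood gene PTPRC, the muscle factor MYOD1 and the pluripotency factor NANOG were listed at 0 at both passages. Markers of muscle, fibroblasts and neurons did differ between the passages. The 4 muscle markers summed to 13.4 and 12.9 FPKM in CHIR-P23, against 132 and 134 FPKM in CHIR-P6, nearly all of it DES, an intermediate filament of muscle. All 6 fibroblast markers were at least 2-fold lower in CHIR-P23, with sums of 6.86 and 6.79 FPKM in its libraries, against 46.7 and 46.9 FPKM in CHIR-P6, although COL1A1, a type I collagen chain, differed by only -0.91 after quantile normalization. The 5 neuron markers summed to 187 and 188 FPKM in CHIR-P23, against 304 and 306 FPKM in CHIR-P6. The 2 that were lower by 2-fold, STMN2 and SYT1, were also expressed in the fibroblasts and during induction. DCX and ELAVL4 were under 1 FPKM in the fibroblasts and during induction. DCX averaged 2.02 FPKM in CHIR-P23 and 4.91 FPKM in CHIR-P6 (-0.97, or -1.24 with a pseudocount of 0.1). ELAVL4, under the expression limit, averaged 0.369 FPKM in CHIR-P23 and 1.07 FPKM in CHIR-P6. In bulk RNA, fewer cells of a type and less RNA per cell cannot be told apart, and the part of such cells in the differences given here was not tested.

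Several transcription factors of the neural plate were low or close to 0 at passage 6 and well expressed at passage 23. SOX3, a SOXB1 factor, had 36.6 and 36.8 FPKM in the CHIR-P23 libraries, against 0.0499 and 0.0500 FPKM in CHIR-P6 (log2 difference 5.17, the largest among genes of at least 20 FPKM that carry a gene symbol). POU3F3, also known as BRN1, followed with 24.4 and 24.4 FPKM in CHIR-P23, against 0.134 and 0.135 FPKM in CHIR-P6 (4.49). Its relative POU3F2 (BRN2) was already expressed at passage 6, with 67.3 and 67.1 FPKM in CHIR-P23, against 16.1 and 16.1 FPKM in CHIR-P6 (1.99). PAX6, a paired-box factor of neural progenitors, had 16.6 and 16.8 FPKM in CHIR-P23, against 2.25 and 2.26 FPKM in CHIR-P6 (2.44). SOX1 had 4.56 and 4.66 FPKM in CHIR-P23, against 0.293 and 0.257 FPKM in CHIR-P6 (2.14). The libraries of a passage lay close together in each of these genes, as in most others. Of the 15024 genes compared, 13896 had libraries that did not overlap between the passages. Because the 2 libraries of a passage count as 1 sample, their closeness does not measure error. Not all factors of the group were higher in CHIR-P23. SOX2 itself differed by -0.16. Over 38 neuroepithelial and neural progenitor loci compared, 7 were higher and 4 lower, with a median of 0.02, so that a few members moved strongly while the list as a whole did not.

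Further genes among the 15 largest increases are known from early neural tissue. DMRTA1, a factor of the doublesex family, had 22.4 and 22.6 FPKM in the CHIR-P23 libraries, against 0.713 and 0.588 FPKM in CHIR-P6 (3.83). SMOC1, a secreted matrix protein that acts on BMP signalling, averaged 47.7 FPKM in CHIR-P23 and 8.92 FPKM in CHIR-P6 (2.29), and PRTG, a membrane protein of the immunoglobulin superfamily found in the early neural tube, averaged 55.5 FPKM in CHIR-P23 and 15.4 FPKM in CHIR-P6 (1.78). PCDH8, a protocadherin, averaged 27.9 FPKM in CHIR-P23 and 6.2 FPKM in CHIR-P6 (2.01). LRRN1, a leucine-rich repeat membrane protein, and LRIG1, which restrains receptor tyrosine kinases, differed by 1.84 and 1.69. All of these genes were expressed at passage 6 except DMRTA1, which stayed under 1 FPKM there.

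**Figure D2:**
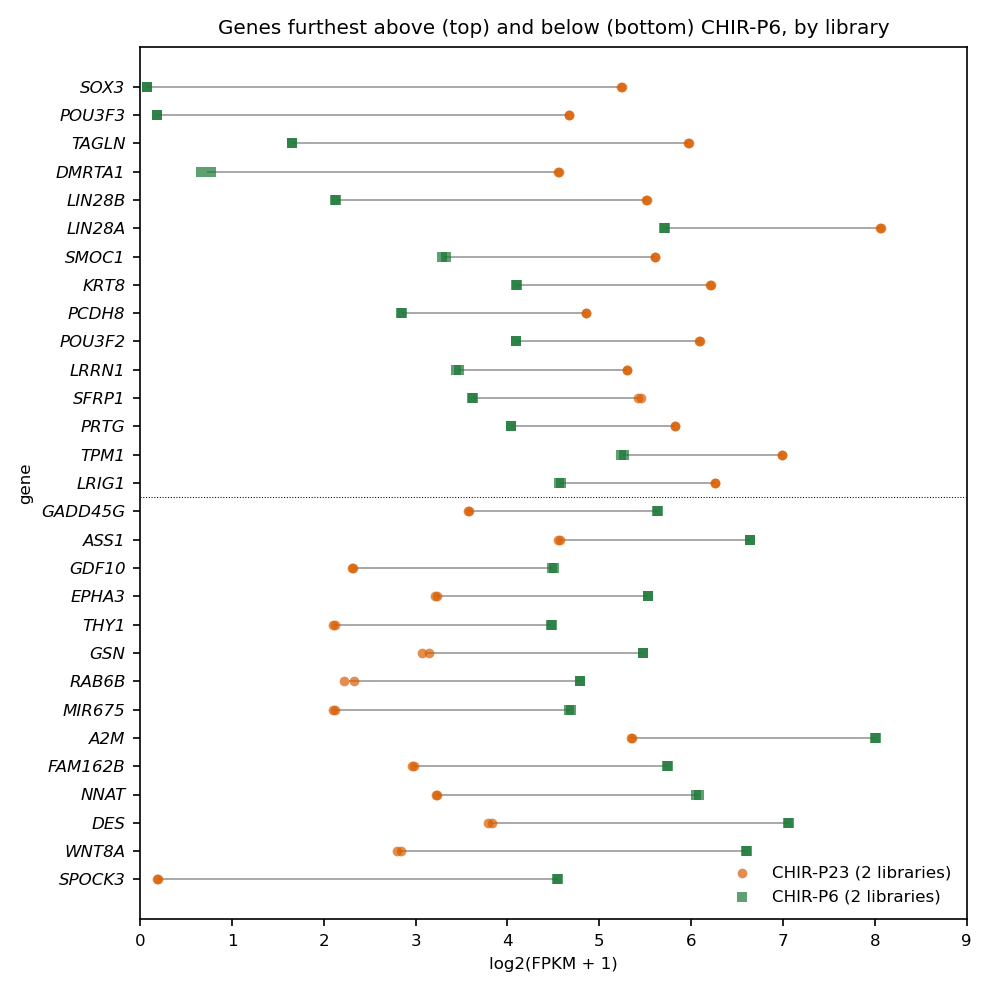
The horizontal axis gives log2(FPKM + 1) in each of the 2 libraries of CHIR-P23 (orange circles) and CHIR-P6 (green squares) for the 15 genes furthest above CHIR-P6 (top) and 14 of the 15 furthest below it (bottom). Libraries that do not overlap between the passages were a condition for these genes, and the 2 libraries of a passage count as 1 sample. SOX3, POU3F3, TAGLN and SPOCK3 are separated by more than 4 units between the passages.

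Both LIN28 genes were much higher in the later passage, together with several genes that let-7 is known to repress. LIN28A had 265 and 267 FPKM in the CHIR-P23 libraries, against 51.3 and 51.6 FPKM in CHIR-P6 (log2 difference 2.35). LIN28B had 44.5 and 44.8 FPKM in CHIR-P23, against 3.36 and 3.39 FPKM in CHIR-P6 (3.38). LIN28A was thus well expressed at both passages, and LIN28B was low at passage 6. ARID3B, a DNA-binding protein, averaged 13.8 FPKM in CHIR-P23 and 4.89 FPKM in CHIR-P6 (1.33). IGF2BP1, which binds and stabilises messenger RNAs, averaged 99.3 FPKM in CHIR-P23 and 41.4 FPKM in CHIR-P6 (1.24). TRIM71 and CCND1, which encode an RNA-binding ubiquitin ligase and cyclin D1, also reached 2-fold and were named after their values were seen. Of 23 loci in this list, 6 (26.1%) were higher and none lower, 19 lay above 0, and the median was 0.46, beside -0.01 over all genes. Mature let-7 levels were not measured by these libraries.

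The reprogramming factors had lower or similar levels in CHIR-P23. POU5F1, which encodes OCT4, had 74.4 and 75.0 FPKM in the CHIR-P23 libraries, against 181 and 182 FPKM in CHIR-P6 (-1.27). KLF4 had 6.81 and 6.85 FPKM in CHIR-P23, against 25.2 and 23.8 FPKM in CHIR-P6 (-1.70). The retroviral copies have rhesus sequence, so reads from them and from the cells' own genes cannot be told apart. L1TD1, an RNA-binding protein of pluripotent cells, averaged 0.726 FPKM in CHIR-P23 and 13.1 FPKM in CHIR-P6 (-3.03). Among 11 pluripotency loci compared, LIN28A was the 1 that was higher, and L1TD1 was among the 2 that were lower, while 15 more stayed under the expression limit.

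Genes that give position within the nervous system moved in different directions. Of 17 midbrain and hindbrain factors, 3 were higher and 1 was lower. DBX1, a homeobox factor of interneuron progenitors, had 9.78 and 10.0 FPKM in CHIR-P23, against 0.725 and 0.605 FPKM in CHIR-P6 (2.71), whereas LBX1, a homeobox factor of dorsal interneurons, averaged 2.08 FPKM in CHIR-P23 and 5.93 FPKM in CHIR-P6 (-1.17, and just short of 2-fold after quantile normalization). None of the 7 forebrain and eye-field factors compared reached 2-fold, and 17 others were under the expression limit. Of 26 HOX genes, none was higher and 8 (30.8%) were lower, with a median of -0.39. HOXA10 had 1.54 and 1.54 FPKM in CHIR-P23, against 8.18 and 7.99 FPKM in CHIR-P6 (-1.84), and HOXD8 averaged 5.64 FPKM in CHIR-P23 and 13.5 FPKM in CHIR-P6 (-1.13). The other lower genes were HOXA11, HOXB7, HOXC8, HOXD9, HOXD10 and HOXD11. The list was split at paralogue group 7 after the values were seen. Of 14 HOX genes of groups 7 to 13, 8 were lower, and the 14 summed to 45.5 FPKM in CHIR-P23 and 80.04 FPKM in CHIR-P6. HOXA9, the most abundant of them and also named after its values were seen, stayed within 2-fold, at 24.2 FPKM in CHIR-P23 and 30.4 FPKM in CHIR-P6. None of the 12 genes of groups 1 to 6 was called, and their sums were 72.9 FPKM in CHIR-P23 and 73.1 FPKM in CHIR-P6. Most of both sums came from HOXB2, HOXB3 and HOXB4, which differed by 0.30, 0.19 and 0.06. HOXA5 lay furthest below 0 in this set, at 3.94 FPKM in CHIR-P23 and 8.04 FPKM in CHIR-P6 (-0.87). These 4 genes were also named after their values were seen. A gene under 1 FPKM at both passages cannot be called, and both sets held such genes. In groups 1 to 6, HOXB5 averaged 0.0431 FPKM in CHIR-P23 and 0.548 FPKM in CHIR-P6. HOXC6 averaged 0.0809 FPKM in CHIR-P23 and 0.792 FPKM in CHIR-P6. HOXC4 and HOXD1, also under 1 FPKM, differed by 0.22 and -0.11. Of the called genes, HOXD10 and HOXD11 averaged 1.27 and 1.24 FPKM in CHIR-P6. How far expression level set this split was not tested.

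Many genes of neuronal differentiation were lower in CHIR-P23. Of 39 proneural and neuronal genes compared, 2 were higher and 14 (35.9%) lower, and 32 lay below 0, with a median of -0.73. STMN2, a microtubule regulator of growing neurons, had 9.59 and 10.2 FPKM in CHIR-P23, against 39.0 and 39.2 FPKM in CHIR-P6 (-1.88). INSM1, a zinc finger factor of newborn neurons, had 2.28 and 2.32 FPKM in CHIR-P23, against 11.9 and 12 FPKM in CHIR-P6 (-1.97). SYT1, a calcium sensor of synaptic vesicles, averaged 1.44 FPKM in CHIR-P23 and 8.07 FPKM in CHIR-P6 (-1.89). STMN2 and SYT1 were also expressed before passage 6. STMN2 averaged 705 FPKM on day 5 and 537 FPKM on day 11, and SYT1 averaged 11.0 FPKM in RF-P3 and 21.4 FPKM on day 11. Whether they stand for neurons in these cultures was not tested. TUBB3, a neuronal tubulin, stayed within 2-fold, at 174 FPKM in CHIR-P23 and 252 FPKM in CHIR-P6 (-0.53). A few Notch genes were also lower. DLL3, a Notch ligand of differentiating cells, had 0.655 and 0.718 FPKM in CHIR-P23, against 8.78 and 8.64 FPKM in CHIR-P6 (-2.53). The Notch target genes HEY1, HEYL and HES1 were lower by log2 differences of -1.47, -1.44 and -1.01, and that of HES1 was -0.98 with libraries rescaled to one total. Of 26 Notch genes, 5 were lower (19.2%, beside 4.28% over all genes), none was higher and 21 stayed within 2-fold.

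Some guidance molecules of growing axons were lower as well. EPHA3, an ephrin receptor, had 8.38 and 8.23 FPKM in CHIR-P23, against 45.3 and 45.3 FPKM in CHIR-P6 (-2.31). NRP2, a receptor for semaphorins, averaged 12.6 FPKM in CHIR-P23 and 44.6 FPKM in CHIR-P6 (-1.75), and SLIT2, a repellent ligand, averaged 3.27 FPKM in CHIR-P23 and 12.1 FPKM in CHIR-P6 (-1.62). Of 63 guidance genes, 11 (17.5%) were lower, 1 was higher and 51 stayed within 2-fold, with a median of -0.27. SPOCK3, a secreted proteoglycan of the nervous system, gave the largest decrease among the named genes, with 0.140 and 0.147 FPKM in CHIR-P23, against 22.5 and 22.3 FPKM in CHIR-P6 (-4.35). RAB6B, a neuronal Rab protein of vesicle transport, averaged 3.84 FPKM in CHIR-P23 and 26.7 FPKM in CHIR-P6 (-2.51).

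Several fibroblast genes, most of them far below their fibroblast level already at passage 6, were lower still at passage 23. COL3A1, a fibrillar collagen, had 1.64 and 1.67 FPKM in CHIR-P23, against 12.9 and 12.6 FPKM in CHIR-P6 (-2.38), and averaged 766 FPKM in the RF-P3 fibroblasts. THY1, a surface glycoprotein, had 3.30 and 3.34 FPKM in CHIR-P23, against 21.4 and 21.1 FPKM in CHIR-P6 (-2.37). LGALS1, a galectin named after its values were seen, was the most abundant of the lower genes in the list, with 229 and 232 FPKM in CHIR-P23, against 569 and 569 FPKM in CHIR-P6 (-1.30). Of 36 fibroblast genes, 11 (30.6%) were lower and 1 was higher, with a median of -0.47. The exception was CAV1, the coat protein of caveolae, with 19.9 and 19.6 FPKM in CHIR-P23, against 1.68 and 1.55 FPKM in CHIR-P6 (2.99).

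CAV1 was accompanied by some genes of the actin cytoskeleton and of the Hippo pathway, which controls growth through the coactivators YAP and TAZ. Several of the genes given here were far higher in the RF-P3 fibroblasts than at either passage. CAV1 averaged 977 FPKM there, TAGLN 1264, TPM1 1370, CYR61 409, CTGF 133 and KRT8 255 FPKM, as did ACTA2 at 570 FPKM. Thus some genes of high fibroblast level were higher in CHIR-P23 and others lower. TAGLN, an actin-binding protein, had 61.8 and 61.6 FPKM in CHIR-P23, against 2.14 and 2.14 FPKM in CHIR-P6 (4.32). TPM1, a tropomyosin, had 126 and 126 FPKM in CHIR-P23, against 37.6 and 36.8 FPKM in CHIR-P6 (1.74). ACTA2, the smooth muscle actin, went the other way, with 10.6 and 10.7 FPKM in CHIR-P23, against 46.5 and 44.8 FPKM in CHIR-P6 (-2.00). CTGF and CYR61, secreted matrix proteins and well known YAP targets, averaged 17.7 and 13.7 FPKM in CHIR-P23, against 4.09 and 3.45 FPKM in CHIR-P6 (1.88 and 1.72), and AJUBA, a LIM protein of cell junctions, differed by 1.49. Of 23 contractile genes, 4 (17.4%) were higher and 1 (4.35%) was lower. Of 21 Hippo genes, 3 (14.3%) were higher, none was lower and 18 stayed within 2-fold, with 15 above 0 and 6 below. Of the coactivator genes, named after their values were seen, YAP1 differed by 0.19. WWTR1, which encodes TAZ, averaged 8.69 FPKM in CHIR-P23 and 17.6 FPKM in CHIR-P6 (-0.94). KRT8, a keratin of simple epithelia, had 73.1 and 72.6 FPKM in CHIR-P23, against 16.2 and 16.0 FPKM in CHIR-P6 (2.11).

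Single genes known from mesoderm, muscle and endoderm were prominent at passage 6 without the defining factors of those layers. WNT8A, a WNT ligand of the early embryo, had 5.95 and 6.18 FPKM in CHIR-P23, against 96.2 and 95.8 FPKM in CHIR-P6 (-3.78). DES, the intermediate filament of muscle, had 13.2 and 12.8 FPKM in CHIR-P23, against 132 and 133 FPKM in CHIR-P6 (-3.26). A2M, a protease inhibitor of plasma, had 39.8 and 39.7 FPKM in CHIR-P23, against 256 and 258 FPKM in CHIR-P6 (-2.66). KDR and LMO2, a VEGF receptor and a cofactor of blood cell development, averaged 0.317 and 0.171 FPKM in CHIR-P23, against 6.26 and 7.35 FPKM in CHIR-P6 (-2.46 and -2.83). MEOX1, a homeobox factor of somites, was an exception with 9.12 and 8.74 FPKM in CHIR-P23, against 0.931 and 0.932 FPKM in CHIR-P6 (2.36). Of 19 loci of primitive streak and mesoderm, 3 (15.8%) were higher and 5 (26.3%) lower, beside 1.39% and 4.28% over all genes. Of 23 skeletal and cardiac muscle loci only DES and TNNT1, a troponin, were called, both lower (8.7%). That count is too small to set against the share over all genes.

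The WNT, FGF and TGF-beta pathways, on which components of the medium act, held genes of both directions. In the WNT list of 52 loci, 5 (9.62%) were higher and 6 (11.5%) lower, beside 1.39% and 4.28% over all genes. The largest difference in the list was that of WNT8A, given above, which was lower (-3.78). LGR5, a receptor and WNT target, averaged 15.8 FPKM in CHIR-P23 and 3.91 FPKM in CHIR-P6 (1.77). SFRP1, a secreted WNT inhibitor, averaged 42.3 FPKM in CHIR-P23 and 11.3 FPKM in CHIR-P6 (1.81), and SP8, a zinc finger factor, averaged 6.89 FPKM in CHIR-P23 and 0.202 FPKM in CHIR-P6 (2.71). In the FGF list of 28 loci, 4 were higher and 2 lower. The receptors differed in direction, with FGFR3 at 15.6 FPKM in CHIR-P23 and 4.92 FPKM in CHIR-P6 (1.49) and FGFR1 at 25 FPKM in CHIR-P23 and 53 FPKM in CHIR-P6 (-1.05). ETV5 and ETV4, ETS factors that FGF signalling induces, differed by 1.51 and 1.03, and ETV4 fell just short of 2-fold without library 1 of each passage. Other feedback genes, named after their values were seen, did not all follow: DUSP4 differed by 0.84, SPRY4 by 0.13, SPRY2 by -0.02, DUSP6 by -0.18 and SPRY1 by -0.81. Of the 28 loci, 13 lay above 0 and 13 below, with a median of 0.

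The TGF-beta and BMP list was lower in 7 and higher in 2 of 48 loci. LTBP1 was among the higher loci and averaged 16.1 FPKM in CHIR-P23 and 5.48 FPKM in CHIR-P6. The other genes of this list named here were lower. TGFBR2, the type II receptor for TGF-beta, averaged 5.86 FPKM in CHIR-P23 and 20.7 FPKM in CHIR-P6 (-1.66). ID1 and ID2, inhibitors of helix-loop-helix factors and BMP targets, averaged 6.15 and 22.7 FPKM in CHIR-P23, against 19.2 and 67.4 FPKM in CHIR-P6 (-1.50 and -1.53). GDF10, a BMP-related ligand that is not in this list but among the 15 largest decreases, averaged 3.97 FPKM in CHIR-P23 and 21.5 FPKM in CHIR-P6 (-2.18). Of 18 loci of the LIF and STAT3 pathway, 3 (16.7%) were lower and none higher, beside 4.28% and 1.39% over all genes. OSMR, the oncostatin M receptor, averaged 1.67 FPKM in CHIR-P23 and 12.1 FPKM in CHIR-P6 (-2.30), and SOCS2, a feedback inhibitor of cytokine receptors, averaged 10.6 FPKM in CHIR-P23 and 44.7 FPKM in CHIR-P6 (-1.97). Of 15 Hedgehog loci, 2 were higher and 1 lower, counts too small to set against the shares over all genes, with PTCH1, the receptor and target of the pathway, at 20.1 FPKM in CHIR-P23 and 9.32 FPKM in CHIR-P6 (1.03). CRABP2, which carries retinoic acid within the cell, averaged 347 FPKM in CHIR-P23 and 168 FPKM in CHIR-P6 (1.04, or 0.98 after quantile normalization), and RDH10, which makes its precursor, averaged 18.2 FPKM in CHIR-P23 and 41.9 FPKM in CHIR-P6 (-1.16).

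Genes of DNA replication were slightly higher in CHIR-P23 almost without exception, mostly by less than 2-fold. Of 42 loci, 41 lay above 0 with a median of 0.61, and 40 to 41 did so under each of the other 3 scalings of the libraries, but only CDC6 and RRM2 reached 2-fold. CDC6, which loads the replicative helicase, had 42.9 and 42.3 FPKM in CHIR-P23, against 19.2 and 19 FPKM in CHIR-P6 (1.12). RRM2, the small subunit of ribonucleotide reductase, averaged 162 FPKM in CHIR-P23 and 76.8 FPKM in CHIR-P6 (1.07, or 0.93 after quantile normalization). Of 51 mitosis loci, 49 lay above 0 with a median of 0.36 and none reached 2-fold. Over all genes compared, 7061 lay above 0 and 7682 below.

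Targets of p53 and inhibitors of the cell cycle were lower in 5 of 33 loci (15.2%, beside 4.28% over all genes) and higher in none. GADD45G, a stress-induced growth inhibitor, had 10.9 and 10.9 FPKM in CHIR-P23, against 48.9 and 48.6 FPKM in CHIR-P6 (-2.06). BTG2, an antiproliferative factor, averaged 10.3 FPKM in CHIR-P23 and 34.9 FPKM in CHIR-P6 (-1.67). CDKN1A, which encodes the cyclin-dependent kinase inhibitor p21 and was named after its values were seen, had 41.0 and 40.7 FPKM in CHIR-P23, against 107 and 108 FPKM in CHIR-P6 (-1.37). The other 2 were DDB2 and TP53INP1 (-1.47 and -1.45). None of 23 apoptosis regulators or 46 DNA repair loci reached 2-fold, although 39 of the repair loci lay above 0, with a median of 0.27. Ribosomal protein loci were lower by a small amount, with 83 of 86 below 0 and a median of -0.25. This lean shrank to 64 of 86 and a median of -0.07 after quantile normalization.

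Few metabolic genes reached 2-fold, and some of these differed strongly. SLC16A3, a lactate exporter, had 0.437 and 0.482 FPKM in CHIR-P23, against 12 and 12.1 FPKM in CHIR-P6 (-3.16). ASS1, which makes argininosuccinate in arginine synthesis, had 22.7 and 22.5 FPKM in CHIR-P23, against 99.0 and 98.6 FPKM in CHIR-P6 (-2.08), whereas ASNS, the asparagine synthetase, had 139 and 137 FPKM in CHIR-P23, against 48.3 and 47.4 FPKM in CHIR-P6 (1.51). Of 34 serine and one-carbon loci, which include ASS1 and ASNS, 2 were higher and 1 lower, and 29 lay above 0 with a median of 0.32. Of 24 glycolysis loci, 2 were lower and none higher, which is near the shares over all genes. None of 28 cholesterol synthesis loci and none of 72 subunits of oxidative phosphorylation reached 2-fold, although 60 of these subunits lay below 0, with a median of -0.15.

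Some innate immune genes were far lower in CHIR-P23. TRIM22, an antiviral ubiquitin ligase induced by interferon, had 0.425 and 0.436 FPKM in CHIR-P23, against 19.8 and 19.4 FPKM in CHIR-P6 (-3.85). TMEM173, which encodes the DNA-sensing adaptor STING, averaged 0.481 FPKM in CHIR-P23 and 5.47 FPKM in CHIR-P6 (-2.13), and IFI16, a DNA sensor, averaged 65.7 FPKM in CHIR-P23 and 157 FPKM in CHIR-P6 (-1.24). Of 34 interferon-stimulated and antiviral loci, 4 were lower (11.8%, beside 4.28% over all genes) and none was higher. In this list 30 lay below 0, with a median of -0.27.

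Of 25 imprinted loci, 3 (12%) were higher and 2 (8%) lower, counts too small to set against the shares over all genes. NNAT, a small membrane proteolipid expressed from the paternal allele, had 8.43 and 8.33 FPKM in CHIR-P23, against 65.4 and 66.9 FPKM in CHIR-P6 (-2.84). NDN, a paternally expressed gene of the Prader-Willi region, averaged 24.4 FPKM in CHIR-P23 and 8.14 FPKM in CHIR-P6 (1.48), and MAGEL2 and MKRN3 of the same region, named after their values were seen, were the other higher loci. The locus labelled MIR675, a microRNA gene that lies within the imprinted H19 gene in RefSeq, had 3.28 and 3.36 FPKM in CHIR-P23, against 24.5 and 24.8 FPKM in CHIR-P6 (-2.57). These are values of the locus and not of the mature microRNA. None of 17 DNA methylation, 32 Polycomb and 19 heterochromatin loci and 3 of 370 ZNF zinc finger loci reached 2-fold. Over all genes 1.39% were higher and 4.28% lower, so no call in lists as short as the first ones is near these shares. Most of their loci lay slightly above 0: 12 of 17 DNA methylation (median 0.15), 23 of 32 Polycomb (0.13) and 15 of 19 heterochromatin loci (0.23). Over 21 chromosomes, medians lay between -0.09 and 0.02, while the share of higher genes lay between 0.44% and 4.30% and that of lower genes between 2.39% and 7.98%, and these differences were not tested.

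**Figure D3:**
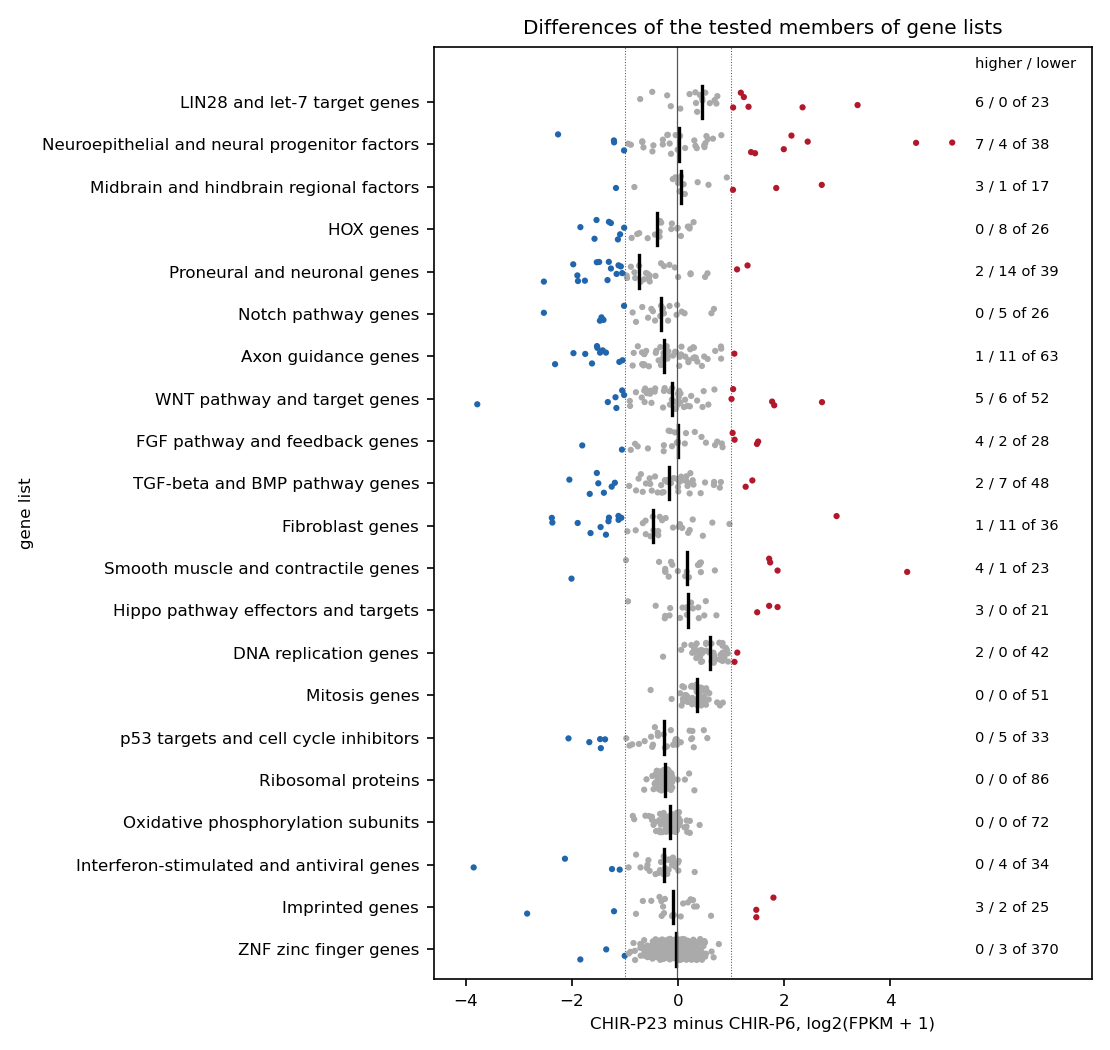
Each point is a compared locus of a gene list, placed by its difference in log2(FPKM + 1), CHIR-P23 minus CHIR-P6 (horizontal axis), with list medians as black bars, 2-fold as dotted lines and counts of higher and lower loci at the right. Lists share some genes. DNA replication genes lie to the right of the median of all genes (thin line, -0.01) and proneural and neuronal genes mostly to its left, with a median of -0.73.

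The colonies and the earlier lines, which did not enter the 2-fold calls, show where both passages stand. The 209 genes higher in CHIR-P23 had a median of 0.554 FPKM in the RF-P3 fibroblasts, 1.54 FPKM on day 5, 1.41 FPKM on day 11, 1.25 FPKM at passage 6, 6.37 FPKM at passage 23, and 9.16 and 6.79 FPKM in the colonies C8-P7 and A9-P7. The 643 lower genes had medians of 2.92 FPKM in the fibroblasts, 6.02 FPKM on day 5, 7.46 FPKM on day 11, 5.53 FPKM at passage 6, 1.12 FPKM at passage 23, and 0.456 and 0.596 FPKM in C8-P7 and A9-P7. Medians of all genes compared ranged between 8.05 and 9.29 FPKM. Of the 643 lower genes, 244 peaked in CHIR-P6 among the 7 lines, a count that the call itself favours. The 3 earlier lines held the peak of 72 of the 209 higher genes (34.4%), 388 of the 643 lower genes (60.3%) and 8171 of all genes compared (54.4%). The colonies grew out of the CHIR-P23 culture and so do not repeat the comparison.

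Individual genes followed several courses. WNT8A was at or under 0.184 FPKM in every line except CHIR-P23 (6.06 FPKM) and CHIR-P6 (96.0 FPKM), and GDF10 was likewise under 0.05 FPKM elsewhere. GSN, an actin-severing protein, was instead highest on day 11, at 1345 FPKM, and had 7.62 FPKM in CHIR-P23 against 43.6 FPKM in CHIR-P6 (-2.37). SOX3 reached 75.4 FPKM in C8-P7 and 65.1 FPKM in A9-P7, and LIN28A 285 and 271 FPKM. The contractile genes differed between the colonies, as TAGLN was at 0.824 FPKM in A9-P7 but at 84.7 FPKM in C8-P7. POU5F1 also differed between them, at 14.3 FPKM in C8-P7 and 298 FPKM in A9-P7.

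**Figure D4:**
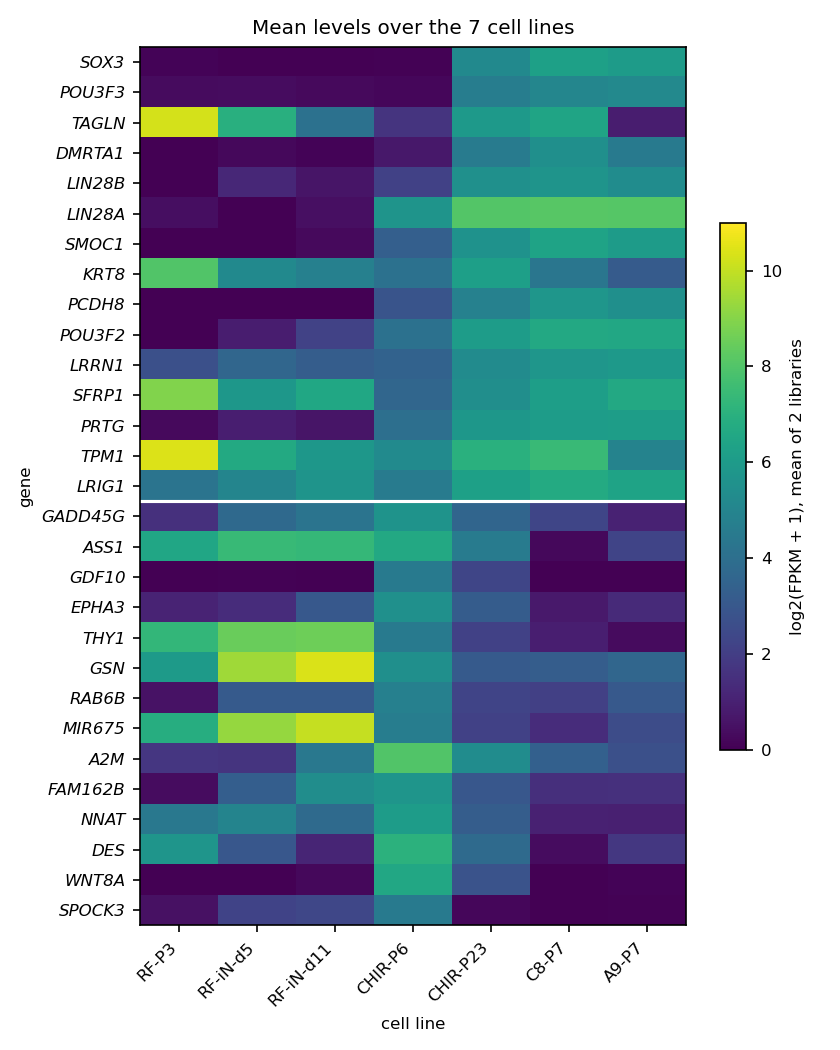
Colour gives log2(FPKM + 1), as the mean of 2 libraries, for the 15 genes furthest above CHIR-P6 (top) and 14 of the 15 furthest below it (bottom) in each of the 7 cell lines (columns). WNT8A and GDF10 are visible in the CHIR-P6 and CHIR-P23 columns alone, and TAGLN is at 0.824 FPKM in A9-P7 but 84.7 FPKM in C8-P7.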

How the data were processed

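The authors deposited FPKM values per gene locus, and the submitters' processing notes name the build Mmul_8.0.1 and, as tools, Cuffnorm 2.2.1, Cufflinks 2.2.1 and HISAT2 2.1.0; strand settings are not given in the sources used here. Of 33737 loci, 28445 had their values in the next position of the table and were realigned, and 49 were left out. After this, 1453 of 1627 genes (89.3%) matched the study's averaged table within 0.3 on the log2 scale in all 7 lines, against 144 (8.85%) as deposited. Relative depth was read from the steps of low FPKM values in 5586 genes (within 0.1 of a whole number, or 2%), and the noise ratio was tested on simulated data. Pairs of libraries were averaged, and log2(FPKM + 1) was compared with no test. Samples were grouped by their labels. No counts were used. The members and the 56 gene lists were chosen with earlier results of these data known. Named genes are the 15 largest increases and decreases (at least 20 FPKM in the higher passage, libraries not overlapping, no LOC number), up to 4 members per list (2-fold, at least 5 FPKM), the reprogramming factors and the markers; others are said to be named after their values were seen. One gene that the rule includes is not reported here. Gene positions came from RefSeq T2T-MMU8v2.0, matched by symbol for 13561 genes (90.3%). Alternative pseudocounts, filters, scalings and single libraries were tried. Tables and figures were made with pandas 2.3.3, Matplotlib 3.10.9, NumPy 2.4.6 and SciPy 1.17.1 in Python 3.11.15.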

Additional observations from a re-analysis of the deposited data

How the results depend on the processing

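The numbers of called genes depended most on how low values were treated. With a pseudocount of 0.1, 539 genes were higher and 1499 lower, and with a pseudocount of 5, 68 and 169. Among genes of at least 5 FPKM in CHIR-P23 or CHIR-P6, 120 were higher and 343 lower. With library 1 or library 2 of each passage left out, 211 to 214 genes were higher and 638 to 642 lower. Of 117 named genes that differed 2-fold, 78 did so in every setting and 109 in every setting but the pseudocount of 5, and none changed direction. No paired analysis was possible because each passage is 1 sample and no test was made. Named genes and lists were not run with values at their deposited labels, since these belong to other genes.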

Other observations

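Some adhesion and basement membrane genes also differed between the passages. Of 23 basement membrane and laminin loci, 1 (4.35%) was higher and 4 (17.4%) lower in CHIR-P23, with a median of -0.48. Over all genes 1.39% were higher and 4.28% lower. LAMA1, the laminin alpha chain of early epithelia, had 18.8 and 18.7 FPKM in CHIR-P23, against 4.58 and 4.57 FPKM in CHIR-P6 (log2 difference 1.82), whereas LAMC3, a laminin gamma chain, had 0.491 and 0.511 FPKM in CHIR-P23, against 5.47 and 5.39 FPKM in CHIR-P6 (-2.10). Among 13 classical cadherins, CDH10 and CDH11 averaged 10.8 and 12.3 FPKM in CHIR-P23, against 32.4 and 29.1 FPKM in CHIR-P6 (-1.50 and -1.17), and CDH2, the N-cadherin of neural progenitors, averaged 121 FPKM in CHIR-P23 and 76.2 FPKM in CHIR-P6 (0.66). Of 36 epithelial junction loci, 2 (5.56%) were higher and 2 (5.56%) lower, counts too small to set against the shares over all genes. DSG2, a desmosomal cadherin, averaged 21.8 FPKM in CHIR-P23 and 6.64 FPKM in CHIR-P6 (1.58), and F11R, a tight junction molecule, averaged 10.5 FPKM in CHIR-P23 and 31.4 FPKM in CHIR-P6 (-1.50).

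The neural crest list was split, with 5 of 24 loci (20.8%) higher and 5 (20.8%) lower, beside 1.39% and 4.28% over all genes. KIT, a receptor tyrosine kinase, averaged 13.1 FPKM in CHIR-P23 and 3.43 FPKM in CHIR-P6 (1.67), and ETS1 and TWIST1, transcription factors of migrating cells, averaged 1.80 and 1.78 FPKM in CHIR-P23, against 7.65 and 6.63 FPKM in CHIR-P6 (-1.63 and -1.46). The most separated loci of all carry only LOC numbers and were singled out after their values were seen. LOC106995782 was listed at 0 in both CHIR-P23 libraries and had 43.2 and 43.3 FPKM in CHIR-P6. LOC106995509 had 110.1 and 65.9 FPKM in CHIR-P23 and was listed at 0 in both CHIR-P6 libraries, and its CHIR-P23 libraries lay further apart than those of the genes named above.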
